A study of Homo sapiens with 8 samples.

Results

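The genes described here are 32 genes of cholesterol and fatty acid synthesis, chosen by symbol from a list of enzymes and regulators under the control of the sterol regulatory element-binding proteins (SREBPs). All 32 were found among the 39533 genes of the deposited table (0.0809% of them), and all 32 were among the 14255 genes that passed the filter on low counts and were tested. They were measured in 8 RNA libraries of HCT116 cells, an established human colorectal cancer line, taken from a tumour self-seeding model, in which circulating cells return to a tumour. Tumour self-seeded cells (TSC, n = 3) and primary tumour cells (PC, n = 3) came from the primary tumour and circulating tumour cells (CTC, n = 2) from blood, per the labels. Liver cancer is named in the title of the series and the colorectal line in its labels, and the sources used here do not give the host, its treatment or the way in which the cells were told apart. All groups are thus 1 cell line, and no label ties the replicates to separate animals or cultures, so the p-values reflect only how far these libraries differ from each other, a spread that may be technical.

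Cells build cholesterol from acetyl-CoA through mevalonate, isoprenoids and squalene, and they build fatty acids from the same precursor through malonyl-CoA. SREBP-2, encoded by SREBF2, is best known for driving the sterol branch, and SREBP-1, encoded by SREBF1, for driving the fatty acid branch. Both are held in the endoplasmic reticulum by the escort protein SCAP and the retention proteins INSIG1 and INSIG2 when sterols are plentiful, and are cut free in the Golgi when sterols run low. Many tumour lines run the fatty acid branch at a high rate.

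SREBPs bind the sterol regulatory element, often beside a CCAAT box bound by the factor NF-Y. The bases before the gene starts are therefore shown for members on which the results turn, other than FASN. Promoters of 28 of the 32 members were matched by symbol in the RefSeq table (GRCh38.p14). Those of ACAT2, FDFT1, SQLE and FASN were not matched and so were not searched. In the 250 bases before each start, on either strand, the element core TCACNCCAC was found in 1 of the 28 (SREBF2, starting 133 bases before the start), against 0.883% of all 35116 promoters and 0.791% of the 10623 promoters of tested genes. CCAAT was found in 18 of the 28 members (64.3%), against 32% of all promoters and 35% of those of tested genes. The GC box GGGCGG was found in 26 (92.9%), against 42.6% and 67.1%, and the E-box CACGTG in 3 (10.7%), against 6.34% and 8.69%. These shares are descriptions without a test, and a match of letters is not a bound site. A window without a match may still hold a site in other letters, or the site may lie outside it. For some members, such as ACLY, PMVK and SCAP, the window searched lies inside the annotated span of the gene. Below are the windows of SREBF2 (chr22:41832855-41833104, plus strand), MVD (chr16:88663092-88663341, minus strand), SREBF1 (chr17:17836987-17837236, minus strand) and INSIG2 (chr2:118088221-118088470, plus strand), each read 5′ to 3′ towards the gene. SREBF2 holds the element core, and the other 3 are members with a called change, as is the unmatched FASN. Capitals mark the element core and CCAAT or its complement ATTGG, and no 2 of the marked motifs overlap.
SREBF2: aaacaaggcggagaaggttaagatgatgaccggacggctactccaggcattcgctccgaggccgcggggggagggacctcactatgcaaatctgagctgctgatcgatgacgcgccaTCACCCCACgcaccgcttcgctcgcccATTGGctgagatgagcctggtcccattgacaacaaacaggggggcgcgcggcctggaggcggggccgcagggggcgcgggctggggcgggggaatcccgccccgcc
MVD: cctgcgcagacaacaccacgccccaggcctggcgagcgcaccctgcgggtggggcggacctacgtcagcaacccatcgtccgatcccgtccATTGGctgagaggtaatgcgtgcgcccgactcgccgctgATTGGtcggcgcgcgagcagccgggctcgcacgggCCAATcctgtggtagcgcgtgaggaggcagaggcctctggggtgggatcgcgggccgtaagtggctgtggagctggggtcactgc
SREBF1: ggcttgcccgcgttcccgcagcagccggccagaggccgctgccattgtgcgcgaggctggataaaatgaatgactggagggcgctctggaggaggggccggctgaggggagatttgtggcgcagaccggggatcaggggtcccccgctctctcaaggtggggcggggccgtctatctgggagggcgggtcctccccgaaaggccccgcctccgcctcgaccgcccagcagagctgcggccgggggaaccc
INSIG2: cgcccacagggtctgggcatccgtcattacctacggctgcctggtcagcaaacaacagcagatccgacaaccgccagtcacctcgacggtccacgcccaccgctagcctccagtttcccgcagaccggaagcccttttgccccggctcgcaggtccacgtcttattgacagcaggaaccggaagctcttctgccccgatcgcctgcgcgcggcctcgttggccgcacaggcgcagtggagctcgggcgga
MVD holds 3 CCAAT boxes, SREBF2 holds 1, and neither motif occurs in these letters in the SREBF1 or INSIG2 window.

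The 3 TSC libraries held between 4578869 and 14717833 counts, the 3 PC libraries between 10864761 and 19264595, and the 2 CTC libraries 957607 and 10524069, so CTC replicate 1 and TSC replicate 1 were the shallowest libraries of the series. A count of 0 would allow up to 2.99 CPM in CTC replicate 1 (3 counts) and up to 0.668 CPM or less elsewhere, counting error alone. CPM here relates counts to the total over tested genes, scaled by trimmed mean of M values (TMM). The colorectal epithelial markers fixed for a check of the labels summed to 5147 CPM or more in each library, with EPCAM, KRT8, KRT18, KRT19, CDH1 and CDX2 counted in all 8, whereas CEACAM5 and VIL1 were at or near 0. Of 10 leukocyte markers, 8 were counted in CTC, 8 in PC and 6 in TSC (CD3E and S100A8 were at 0 throughout). They summed to 389 and 142 CPM in CTC replicates 1 and 2, whereas the TSC sums lay between 2.82 and 5.70 CPM and the PC sums between 2.96 and 4.02 CPM. In CTC, CD14 and CD79A were counted in replicate 2 alone, at 0.286 and 0.0954 CPM. Erythroid markers summed to 194 and 252 CPM in CTC and to at most 1.59 CPM elsewhere (HBB, ALAS2 and SLC4A1 were counted in both CTC libraries, and HBA1 and HBA2 were at 0 there). Fibroblast markers summed to 8.69 to 111 CPM in TSC, 28.8 to 68.4 in PC and 7.73 to 16.0 in CTC, with DCN and LUM at 0. Hepatocyte markers stayed at or below 1.93 CPM and were at 0 in CTC, and adipocyte markers stayed at or below 2.67 CPM with ADIPOQ, FABP4 and LEP at 0. In samples of many cells, fewer cells of a type and less RNA per cell cannot be told apart.

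The 32 members together took 5891, 5587 and 5338 CPM in TSC replicates 1 to 3, 5229, 6212 and 6433 CPM in PC, and 4082 and 3916 CPM in CTC. Both CTC libraries thus lay below every tumour library, while TSC and PC overlapped. The highest levels belonged to enzymes of the fatty acid branch. Per kilobase of exon (GENCODE 29) in PC, SCD, the desaturase that makes oleate, stood at 357 CPM per kb and FASN, the multi-domain fatty acid synthase, at 162. ACLY, which makes cytosolic acetyl-CoA from citrate, followed at 77.5 CPM per kb. Of the sterol enzymes CYP51A1, the lanosterol demethylase, was the highest on this scale at 50.3 CPM per kb. The lowest members were ACACA, the acetyl-CoA carboxylase that makes malonyl-CoA, at 0.403 CPM per kb, FADS2, the delta-6 desaturase gene, at 1.02, LSS, the lanosterol synthase gene, at 1.57, and HSD17B7, a sterol ketoreductase gene, at 1.71. These are levels per length, not differences. ACACA was counted by 1 read in CTC replicate 1, so nothing can be said of its change. CYP51A1 and ACAT2 share 83.2% and 52.3% of their exon bases with other annotated genes, and HSD17B7 has a near-identical pseudogene, so their counts are uncertain, since no source used here gives the strand setting of the counting.

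**Figure D1:**
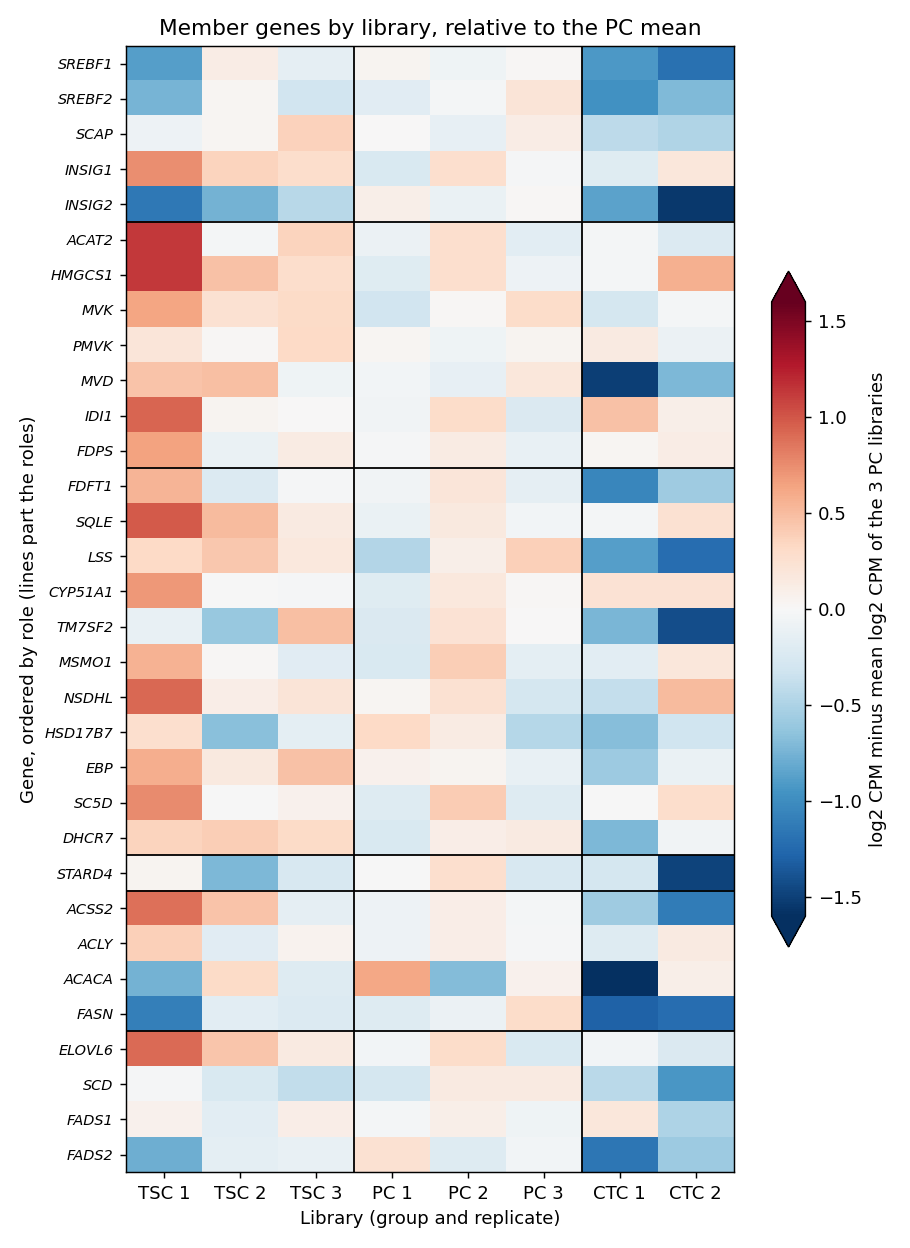
Colour gives log2 CPM of each of the 32 members (rows, ordered by role) in each of the 8 libraries (columns), minus the mean log2 CPM of the 3 PC libraries. FASN, SREBF1, SREBF2, INSIG2 and MVD are low in both CTC libraries, whereas TSC replicate 1 stands apart from TSC replicates 2 and 3 in both directions; ACACA in CTC replicate 1 lies beyond the colour scale.

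CTC were compared with PC to set cells in circulation against cells of the tumour. FASN, SREBF1 and INSIG2 fell in CTC, each by more than 2-fold, and no member rose. These are 3 of 32 members called, where 3.92% of all tested genes were called in either direction, 2.52% lower and 1.4% higher. At an unadjusted p under 0.05, 12 members were lower and 0 higher, against 13.9% and 9.67% of all genes. The median log2 fold change of the members was −0.30, beside −0.04 over all tested genes, with 23 of the 32 values negative and 9 positive, against 52.6% and 47.4% of all genes. DESeq2 called 6 members and limma-voom 7. Calls over all genes were also more numerous there. They were 359 lower and 200 higher by edgeR, 703 and 429 by DESeq2, and 949 and 711 by limma-voom. With 1 library left out, 8 members were called without TSC replicate 1 and 6 without TSC replicate 2. There was 1 without TSC replicate 3, PC replicate 1 or PC replicate 2, and there were 0 without PC replicate 3. Calls over all genes moved too, to 1078 lower and 497 higher without TSC replicate 1, and 647 and 407 without TSC replicate 2. Without TSC replicate 3 or a PC replicate they ran from 82 to 171 lower and from 72 to 114 higher. Fits without a CTC replicate leave 1 CTC library, so their values are given and not their calls. The members' median was −0.24 without CTC replicate 1 and −0.42 without CTC replicate 2, beside −0.08 and −0.11 over all genes. The TSC libraries enter this comparison through the shared estimate of the spread. The blood cell markers given above move with this comparison, and their part in the values of the members was not tested.

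FASN (chromosome 17, 82078338 to 82098236, hg38) stood at 610 and 643 CPM in CTC replicates 1 and 2, against 1304, 1410 and 1838 CPM in PC replicates 1 to 3. The CTC values lay close together and well under the lowest PC library. The fitted fall was 2.42-fold (log2 −1.28 ± 0.25 SE, n = 2 and 3, adjusted p = 0.0146 by edgeR, quasi-likelihood with Benjamini-Hochberg adjustment). The call was lost without PC replicate 3, at a log2 value of −1.10 (adjusted p = 0.0559 by edgeR). FASN was at −1.24 without CTC replicate 1 and at −1.32 without CTC replicate 2. With 1 CTC library left, those fits cannot check the call.

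Among the regulators, SREBF1 (chromosome 17, 17811334 to 17836986) stood at 128 and 106 CPM in CTC and at 250, 231 and 246 CPM in PC. The 3 PC libraries were nearly level, and both CTC libraries lay far below them. The fall was 2.09-fold (log2 −1.06 ± 0.25, n = 2 and 3, adjusted p = 0.0339). INSIG2 (chromosome 2, 118088471 to 118110997) stood at 18.0 and 11.2 CPM in CTC against 34.6, 30.3 and 32.8 CPM in PC, a 2.46-fold fall (−1.30 ± 0.31, adjusted p = 0.0339). Neither call survived the loss of TSC replicate 3 or any PC replicate. There the adjusted p by edgeR ran from 0.0631 to 0.1 for SREBF1 and from 0.0529 to 0.108 for INSIG2. Fits with 1 CTC library left cannot check these calls. Without CTC replicate 1 SREBF1 was at −1.19 and INSIG2 at −1.55, and without CTC replicate 2 they were at −0.93 and −0.87. SREBF2 stood at 139 and 166 CPM in CTC and at 239, 266 and 311 CPM in PC, again without overlap, and missed the threshold (−0.83 ± 0.23, adjusted p = 0.0582). SREBF2 was called in 8 of 19 alternative fits, and SREBF1 in 11. The escort gene SCAP was at 57.9 and 55.1 CPM against 77.7, 70.7 and 84.1 CPM (−0.46 ± 0.21, adjusted p = 0.195). INSIG1, itself a classical SREBP target, did not follow the other regulators. INSIG1 counts came to 67.8 and 88.2 CPM in CTC, beside 65.3, 93.4 and 76.6 CPM in PC (0.02, with a 95% interval from −0.46 to 0.50).

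Sterol enzymes did not share 1 direction in CTC. Of the 7 genes from acetoacetyl-CoA to farnesyl diphosphate, 0 were called, 3 values were positive and 4 negative, with a median of −0.01. MVD, which decarboxylates mevalonate diphosphate, was the lowest of them at 20.0 and 34.7 CPM against 55.1, 52.0 and 64.3 CPM in PC (−0.96 ± 0.26, adjusted p = 0.0546), and it was called without TSC replicate 1 (adjusted p = 0.0247) or TSC replicate 2 (adjusted p = 0.0391). HMGCS1, the synthase that starts the mevalonate pathway, was the highest of them at 111 and 168 CPM against 98.9, 137 and 107 CPM (0.31 ± 0.26, adjusted p = 0.497). Its 2 CTC libraries lay on both sides of the top PC value. For IDI1 (isopentenyl diphosphate isomerase), FDPS (farnesyl diphosphate synthase), MVK (mevalonate kinase), PMVK (phosphomevalonate kinase) and ACAT2 (cytosolic thiolase) the values ran from −0.15 to 0.25.

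Of the 11 genes from squalene to cholesterol, 0 were called, and the median was −0.28. TM7SF2, a sterol reductase gene, was at 7.98 and 4.96 CPM in CTC against 11.3, 15.6 and 13.3 CPM in PC (−1.22 ± 0.43, adjusted p = 0.107). LSS was at 5.99 and 4.77 CPM against 7.96, 11.8 and 14.4 CPM (−1.17 ± 0.39, adjusted p = 0.0969). FDFT1, the squalene synthase gene, was at 25.9 and 35.9 CPM against 51.3, 61.0 and 48.4 CPM (−0.73 ± 0.26, adjusted p = 0.117). In each of these 3 genes both CTC libraries lay below every PC library. The other 8, among them the squalene epoxidase gene SQLE (0.12) and the demethylase genes CYP51A1 (0.22), MSMO1 (0.02) and NSDHL (0.21), lay between −0.45 for HSD17B7 and 0.22. The isomerase gene EBP was at −0.28, the desaturase gene SC5D at 0.14 and DHCR7, which makes the last reduction to cholesterol in one of the routes, at −0.32. STARD4, which carries sterol between membranes, was at 25.9 and 11.4 CPM against 31.3, 38.0 and 26.4 CPM (−0.99 ± 0.36, adjusted p = 0.122). It was at −1.49 without CTC replicate 1 and at −0.30 without CTC replicate 2.

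The other fatty acid genes had values below 0, and none of them was called. With the correction for GC content and length ACLY (0.30), FADS1 (0.07) and ACACA (0.03) lay above 0, and ACLY did so in 8 of 19 alternatives. SCD stood at 1411 and 996 CPM in CTC and at 1562, 2087 and 2094 CPM in PC, with no overlap (−0.67 ± 0.20, adjusted p = 0.0663). ACSS2, which makes acetyl-CoA from acetate, was at 18.95 and 13.0 CPM against 26.6, 30.3 and 27.6 CPM (−0.93 ± 0.32, adjusted p = 0.107). SCD was called in 8 and ACSS2 in 5 of the 19 alternatives. FADS2 was at 4.99 and 7.44 CPM against 13.2, 9.66 and 10.8 CPM (−0.74 ± 0.38, adjusted p = 0.26). ACLY (−0.02, interval −0.43 to 0.40), the delta-5 desaturase gene FADS1 (−0.16, interval −0.63 to 0.30) and the elongase gene ELOVL6 (−0.17, interval −0.71 to 0.37) were near 0, with intervals that leave room for changes of either sign. In all, 13 members had both CTC libraries below every PC library, where 24.7% of all tested genes did, and 1 (CYP51A1) had both above, where 19.9% did.

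**Figure D2:**
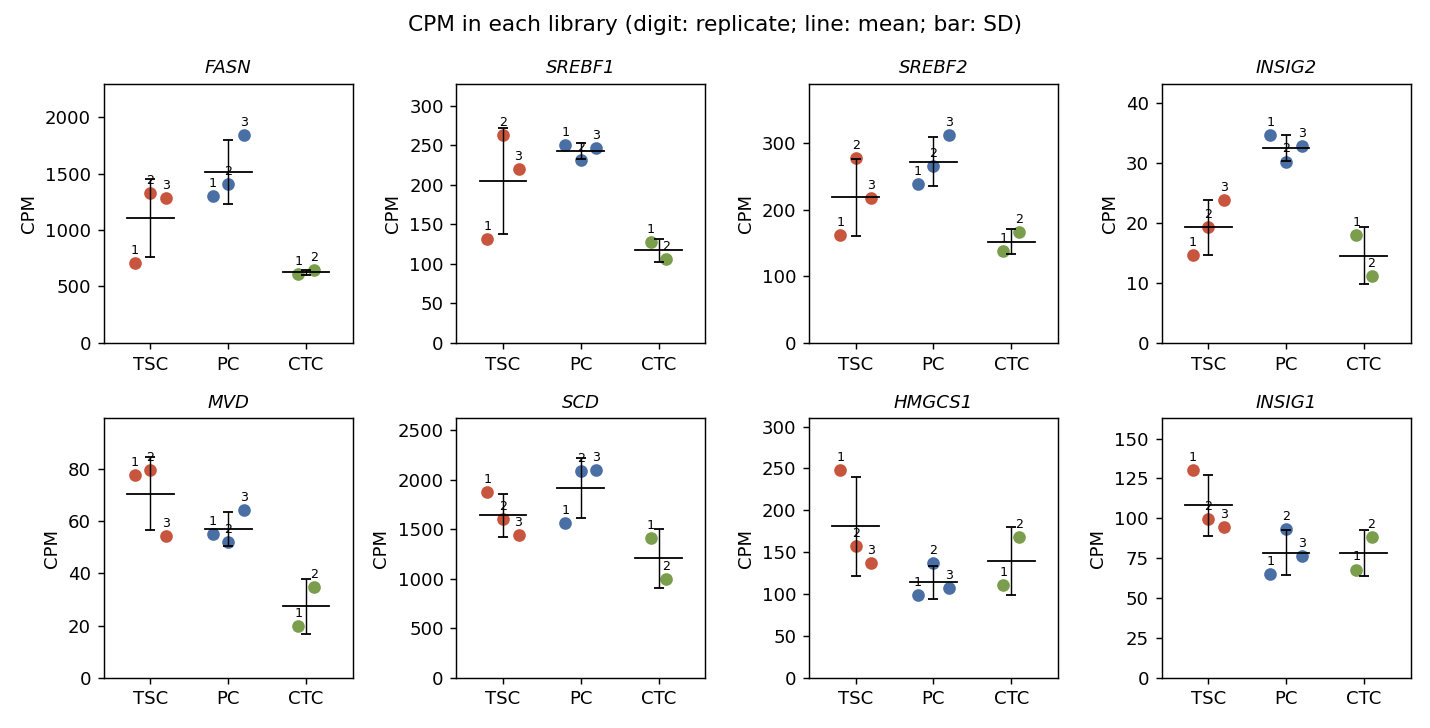
CPM (vertical axis, linear from 0) of 8 members in each library, with the replicate number beside each point, the group mean as a line and the SD as a bar. FASN, SREBF1, SREBF2, INSIG2 and MVD are lower in both CTC libraries than in every PC library, HMGCS1 and INSIG1 overlap between CTC and PC, and TSC replicate 1 is the lowest TSC library for FASN, SREBF1 and SREBF2 and the highest for HMGCS1 and INSIG1.

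The GC content of the transcripts moved with this comparison. Over all genes with a known transcript, those with at least 55% GC had a median log2 fold change of −0.38 in CTC against PC and those below 55% of 0.09. The 12 members at or above 55% GC had a median of −0.78, 11 of them negative, and the 20 below 55% had a median of −0.16, 12 of them negative. FASN, at 65.3% GC, and SREBF1, at 62.8%, are among the GC-rich members, whereas INSIG2, at 35.5%, and STARD4, at 34.2%, are the poorest in GC. When a trend over GC content and transcript length was removed from each library, FASN was at −0.35 ± 0.16 (adjusted p = 0.176), SREBF1 at −0.35 ± 0.19 (adjusted p = 0.244), SREBF2 at −0.27 ± 0.17 (adjusted p = 0.345) and MVD at −0.38 ± 0.27 (adjusted p = 0.393), so the calls of FASN and SREBF1 ended. INSIG2 was at −1.64 ± 0.32 (adjusted p = 0.00609) and STARD4 at −1.32 ± 0.30 (adjusted p = 0.0168), and these 2 were the members called. This correction moved the median of all genes by 0.16, from −0.04 to 0.11. Relative to the median of all genes the members' median was −0.25 before and −0.23 after it. After it 15 members lay above 0 in place of 9, and most of all genes lay above 0 as well. Whether the falls of the GC-rich members belong to the cells or to the libraries was not tested.

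**Figure D3:**
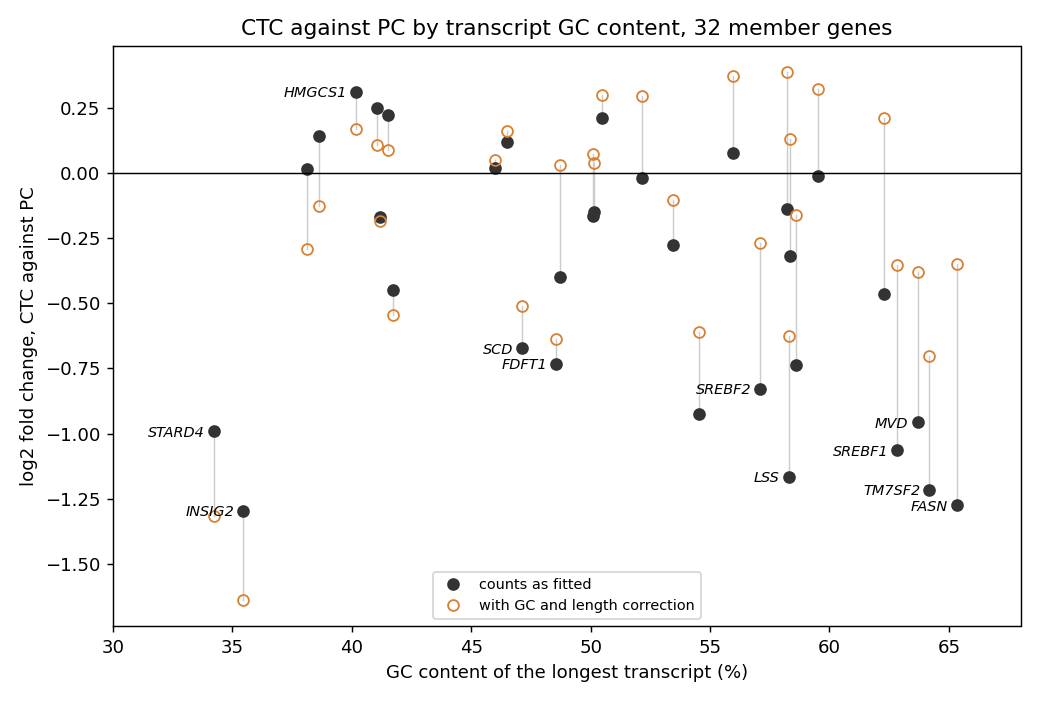
Log2 fold change of CTC against PC (vertical axis) for each of the 32 members against the GC content of its longest transcript (horizontal axis), as fitted (filled) and after correction for GC content and length (open). FASN moves from −1.28 to −0.35 and SREBF1 from −1.06 to −0.35, whereas INSIG2 moves from −1.30 to −1.64.

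TSC were compared with PC to set self-seeded cells against the other cells of the tumour. No member was called by edgeR, where 0.505% of all tested genes were called in either direction, 0.224% higher and 0.281% lower. DESeq2 and limma-voom called 0 members as well. At an unadjusted p under 0.05, 6 members were higher and 1 lower, against 5.05% and 5.25% of all genes. The members' median was 0.21, beside 0.01 over all genes, with 22 of 32 values positive and 10 negative, against 50.7% and 49.1% of all genes. Without TSC replicate 1 the median was −0.01, 14 values were positive, and 0 members reached an unadjusted p under 0.05 on the higher side. TSC replicate 1 was the shallowest TSC library, with 4578869 counts. With all libraries thinned to the total of the shallowest library, the members' median was 0.22, with 21 values positive and 10 negative. What sets TSC replicate 1 apart was not tested.

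Sterol genes were mostly positive in TSC, though none was called. The 7 mevalonate and isoprenoid genes were all positive (0.18 to 0.66, median 0.37), and of the 11 genes from squalene to cholesterol 9 were positive (median 0.26). HMGCS1 was at 248, 157 and 137 CPM in TSC replicates 1 to 3 and at 98.9, 137 and 107 CPM in PC (0.66 ± 0.23, n = 3 and 3, adjusted p = 0.345). All TSC libraries lay above the PC libraries, the lowest TSC and the highest PC value by a small margin. SQLE was at 239, 172 and 134 CPM against 112, 135 and 118 CPM (0.58 ± 0.20, adjusted p = 0.345), where TSC replicate 3 lay just under PC replicate 2. EBP was at 87.4, 65.1 and 80.4 CPM against 60.9, 60.3 and 53.7 CPM (0.41 ± 0.18, adjusted p = 0.467), without overlap. DHCR7 was at 129, 132 and 125 CPM against 84.7, 108 and 111 CPM (0.35 ± 0.19, adjusted p = 0.564), also without overlap. ACAT2 was at 150, 66.8 and 86.9 CPM against 63.9, 81.8 and 60.3 CPM (0.55 ± 0.25, adjusted p = 0.468), where TSC replicate 1 stood far above the others and TSC replicate 2 within the PC range.

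Summed over the mevalonate and isoprenoid genes, TSC replicates 1 to 3 held 878, 546 and 546 CPM and PC 455, 544 and 461 CPM. TSC replicate 1 thus stood far above the others, and TSC replicates 2 and 3 hardly above PC replicate 2. The sums from squalene to cholesterol were 1070, 754 and 737 CPM in TSC and 611, 768 and 660 CPM in PC, where PC replicate 2 passed TSC replicates 2 and 3. In CTC the first sum was 471 and 521 CPM, inside the PC range, and the second 590 and 714 CPM, with CTC replicate 1 just below that range.

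The regulators did not move as 1 group in TSC. INSIG2 was at 14.7, 19.3 and 23.9 CPM in TSC against 34.6, 30.3 and 32.8 CPM in PC, with every TSC library below every PC library (−0.74 ± 0.24, unadjusted p = 0.00713 and adjusted p = 0.271 by edgeR). It was the smallest unadjusted p of the members in this comparison. INSIG1 lay the other way, at 130, 99.7 and 94.2 CPM against 65.3, 93.4 and 76.6 CPM (0.46 ± 0.20, adjusted p = 0.441), also without overlap. SREBF1 was at 131, 263 and 220 CPM against 250, 231 and 246 CPM (−0.24, interval −0.70 to 0.22), and SREBF2 at 161, 277 and 218 CPM against 239, 266 and 311 CPM (−0.31, interval −0.73 to 0.11). In both genes TSC replicate 1 was low and TSC replicate 2 was within or above the PC range. SCAP was at 0.12 (interval −0.25 to 0.49). Of all members, 4 (HMGCS1, INSIG1, EBP and DHCR7) had every TSC library above every PC library, where 8.96% of tested genes did, and 1 (INSIG2) had every TSC library below, where 9.9% did.

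In the fatty acid branch FASN was at 705, 1331 and 1285 CPM in TSC against 1304, 1410 and 1838 CPM in PC (−0.45 ± 0.21, adjusted p = 0.487). TSC replicate 1 was again low, while replicates 2 and 3 lay at the lower edge of PC. SCD was at 1874, 1602 and 1440 CPM against 1562, 2087 and 2094 CPM (−0.22, interval −0.59 to 0.14). ELOVL6, which extends palmitate, was at 117, 85.5 and 69.0 CPM against 60.7, 76.8 and 52.9 CPM (0.51 ± 0.21, adjusted p = 0.436). ACSS2 was at 51.7, 38.6 and 25.4 CPM against 26.6, 30.3 and 27.6 CPM (0.44 ± 0.25, adjusted p = 0.581), with TSC replicate 3 below all PC libraries. FADS1 (0.00, interval −0.40 to 0.40) and ACLY (0.10, interval −0.27 to 0.47) were near 0, and ACACA, FADS2 and STARD4 lay between −0.22 and −0.32. FASN counted 13.2, 10.3 and 17.2 reads per read of HMGCS1 in PC replicates 1 to 3, against 2.85, 8.48 and 9.36 in TSC and 5.51 and 3.83 in CTC. This ratio within a library, chosen after its values were seen, was lower in each TSC and CTC library than in each PC library. The 2 transcripts differ in GC content (65.3% and 40.2%), and the part of that difference in the ratio was not tested.

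**Figure D4:**
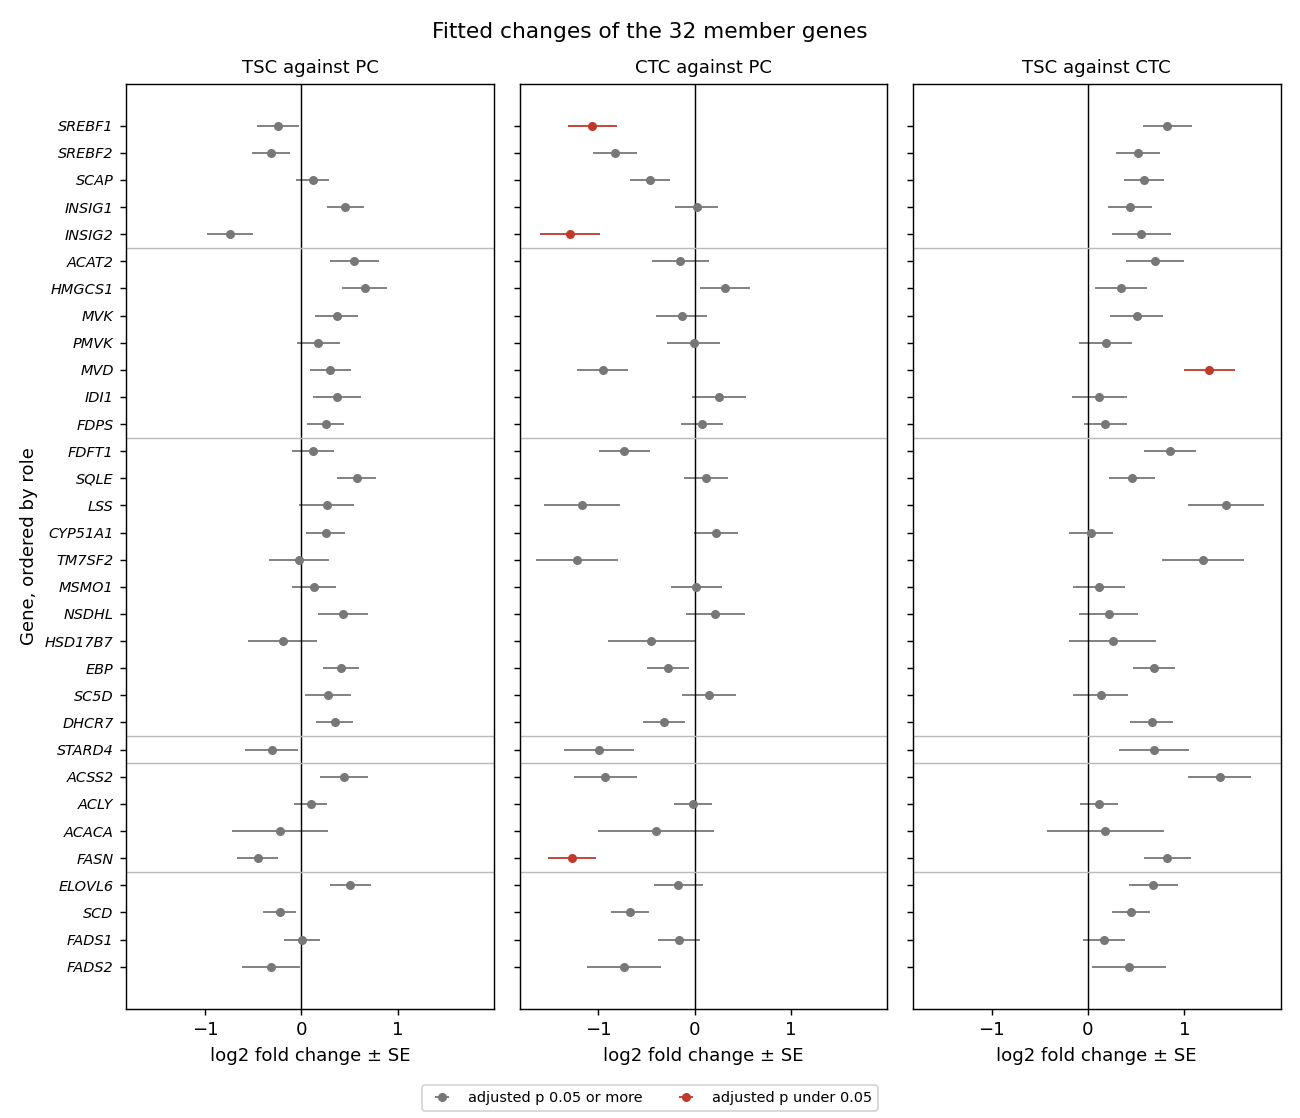
Log2 fold change with its SE (horizontal axis) of each member (vertical axis, ordered by role) in the 3 comparisons, red where the adjusted p was under 0.05. FASN, SREBF1 and INSIG2 are called in CTC against PC, MVD in TSC against CTC and none in TSC against PC, and all 32 values are positive in TSC against CTC (22 without both shallow libraries, 25 without TSC replicate 1, 27 by limma-voom, 28 with the correction for GC content and length and 31 with DESeq2 size factors).

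The last comparison sets self-seeded beside circulating cells. It shares its TSC and CTC libraries with the 2 comparisons above, which share the PC libraries with each other. MVD was higher in TSC, at 77.8, 79.6 and 54.4 CPM against 20.0 and 34.7 CPM in CTC. The lowest TSC library was above the highest CTC library, and the fitted rise was 2.39-fold (1.26 ± 0.26, n = 3 and 2, adjusted p = 0.0406 by edgeR). MVD (chromosome 16, 88651940 to 88663091) was the 1 member called, where 0.898% of all tested genes were called in either direction, 0.372% higher and 0.526% lower. Its call was kept without TSC replicate 1. It was lost without TSC replicate 2, TSC replicate 3 or any PC replicate (adjusted p from 0.0544 to 0.0792 by edgeR). With the correction for GC content and length it was lost too (0.83 ± 0.27, adjusted p = 0.151). The call was also lost by limma-voom (0.93, adjusted p = 0.0737), with the TSC and CTC libraries alone (1.26, adjusted p = 0.11) and with the replicate number as a block (1.33, adjusted p = 0.0769). Without CTC replicate 1 or 2, where 1 CTC library is left, MVD was at 1.02 or 1.82.

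All 32 values were above 0 in TSC against CTC, where 55% of all genes were above and 44.9% below 0, with a median of 0.48 beside 0.06 over all genes. At an unadjusted p under 0.05, 14 members were higher and 0 lower, against 10.3% and 6.36% of all genes. This count was lower under several alternatives: 22 were above 0 without both shallow libraries, 25 without TSC replicate 1, 28 without CTC replicate 1, 29 without CTC replicate 2, 27 by limma-voom and 31 with DESeq2 size factors. After correcting for GC content and length, 28 were above 0, and the median was 0.32 beside −0.03 over all genes. ACSS2 had the second smallest p, at 51.7, 38.6 and 25.4 CPM against 18.95 and 13.0 CPM (1.37 ± 0.33, adjusted p = 0.071), and LSS the third, at 13.8, 14.9 and 12.4 CPM against 5.99 and 4.77 CPM (1.43 ± 0.40, adjusted p = 0.107). FASN (0.82 ± 0.24, adjusted p = 0.123) and SREBF1 (0.82 ± 0.25, adjusted p = 0.131) were not called, and both were without TSC replicate 1 (adjusted p = 0.00658 and 0.00655). Of the genes from squalene to cholesterol, LSS, EBP (0.69), DHCR7 (0.66), FDFT1 (0.85) and TM7SF2 (1.19) had every TSC library above both CTC libraries. CYP51A1 (0.03), MSMO1 (0.11), IDI1 (0.12) and ACLY (0.12) were near 0. In all, 15 members had every TSC library above both CTC libraries, where 15.4% of all tested genes did, and 0 the reverse, where 13% did.

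Other genes of lipid metabolism were taken from 5 lists. Of 12 tested genes among 13 further sterol and isoprenoid enzymes, 0 were called in any comparison, with medians of 0.24 in TSC and 0.06 in CTC against PC. Of 16 genes of SREBP processing and sterol sensing 0 were called (medians 0.18 and 0.06). NPLOC4, a cofactor of protein extraction from the endoplasmic reticulum, was at 0.54 ± 0.15 in TSC (adjusted p = 0.183) and SYVN1, a ubiquitin ligase gene of that compartment, at −1.02 ± 0.35 in CTC (adjusted p = 0.106). Of 27 tested genes among 31 of further fatty acid and glycerolipid synthesis 0 were called (medians 0.16 and 0.02). The acyl-CoA synthetase gene ACSL5 was at −0.84 ± 0.23 (adjusted p = 0.0568), the mitochondrial carboxylase gene ACACB at −1.36 ± 0.38 (adjusted p = 0.0572) and the citrate carrier gene SLC25A1, which feeds ACLY, at −0.70 ± 0.20 (adjusted p = 0.0588) in CTC against PC. Of 18 tested genes among 19 of fatty acid oxidation 0 were called (medians −0.06 and −0.07), and ETFB, which passes electrons from acyl-CoA dehydrogenases, was at 0.82 ± 0.19 in TSC (adjusted p = 0.085).

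Of 16 tested genes among 18 of sterol uptake, transport, esterification and efflux, 2 rose and 0 fell in CTC against PC, and the same 2 were lower in TSC than in CTC (medians 0.07 in TSC and −0.05 in CTC against PC). APOE, the gene of a lipoprotein that carries cholesterol and is made by macrophages among others, was at 209 and 98.8 CPM in CTC, 0.552 to 3.02 CPM in PC and 1.69 to 4.34 CPM in TSC (6.51 ± 0.51 against PC, adjusted p = 9.14e-06). ABCA1, the gene of a cholesterol export pump, was at 115 and 47.9 CPM in CTC, 2.76 to 6.28 CPM in PC and 0 to 1.91 CPM in TSC (4.08 ± 0.52, adjusted p = 0.000727). Both were higher in CTC replicate 1 than in CTC replicate 2, as was the sum of leukocyte markers (389 and 142 CPM). The part of blood cells in these values was not tested.

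The genes outside these lists whose log2 CPM followed the mean of the 32 centred members most closely over the 8 libraries were TMEM219 (r = 0.99), HSPA12A (0.989), CRISPLD2 (0.981), NARF (0.981) and LOXL3 (0.973). These correlations across 8 libraries are descriptions, chosen as the highest of all tested genes. The mean itself was 0.33, 0.08 and 0.11 in TSC, 0.00, 0.16 and 0.04 in PC and −0.41 and −0.31 in CTC on the log2 scale, so it chiefly parts the CTC libraries from the others. Within the list FDFT1 followed the mean of the other 31 members most closely (r = 0.958), followed by MVD (0.876) and ACSS2 (0.854), and IDI1 (0.157) and CYP51A1 (0.161) least.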

How the data were processed

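RNA of 8 libraries was depleted of ribosomal RNA and sequenced, per the labels' protocols. The authors deposited whole-number counts per gene that were not normalized, and the submitters' processing notes name STAR 2.5.3a, featureCounts 1.5.3 and hg38. The gene annotation, strand setting, handling of reads with several positions and any removal of host reads were not stated in any source used here.

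Counts of all 8 libraries entered 1 edgeR 4.0.16 fit in R 4.3.3 (filterByExpr by group with a minimum count of 10, TMM, quasi-likelihood test) with group as the only term. Calls required p under 0.05 after Benjamini-Hochberg adjustment across the 14255 tested genes, separately by comparison. Every adjusted p is from this fit unless another is named. The SE is the log2 fold change divided by the square root of F, and intervals are at 95%. The members and lists were chosen with earlier results of these data known. All members are named. Of other lipid genes, those called and up to 3 of a list with the smallest p were eligible. DESeq2 1.42.0 and limma 3.58.1 were alternatives. Coordinates and promoters are from RefSeq (GRCh38.p14, the build of hg38), exon lengths and GC content from GENCODE 29, known for 91.0% of tested genes. The correction for GC content and length and the joint removal of both shallow libraries were added after the data were seen.

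On counts simulated with known changes, the fit recovered 45.8% of 2-fold and 69.1% of 4-fold changes in TSC against PC, run on 13795 genes with 9 false among 118 calls. In CTC against PC the shares were 22.3% and 69.5% (13807 genes, 8 false among 95 calls). In TSC against CTC they were 26.8% and 74.7% (13788 genes, 4 false among 101 calls).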

Additional observations from a re-analysis of the deposited data

Results flagged for a closer look

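MVD was called in TSC against CTC, but against PC in neither group. Its log2 fold change against PC was 0.30 in TSC (adjusted p = 0.669 by edgeR) and −0.96 in CTC (adjusted p = 0.0546). The difference of 1.26, tested as TSC against CTC, had an adjusted p of 0.0406 by edgeR's quasi-likelihood test. All 3 TSC libraries lay above both CTC libraries, as in 15.4% of all tested genes. With limma-voom (adjusted p = 0.0737) or the correction for GC content and length (adjusted p = 0.151) the call was lost. The call was also lost without TSC replicate 2, TSC replicate 3 or any PC replicate (adjusted p from 0.0544 to 0.0792 by edgeR). It was kept without TSC replicate 1 (adjusted p = 0.0248).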

How the results depend on the processing

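The number of members called depended on the fit, and no member reversed its sign past the threshold under any alternative. For CTC against PC, 3 members were called, and 9 with no filter on low counts, 6 by DESeq2 and 7 by limma-voom. There were 7 with the libraries of the 2 groups alone and 5 without mitochondrial and small noncoding genes. With 1 TSC or PC library left out there were 0 to 8. For TSC against CTC, 1 was called, and 5 with no filter, 2 by DESeq2 and 2 by limma-voom (SREBF1 and FASN, not MVD). There were 0 with the 2 groups alone, 0 with the correction for GC content and length and 0 to 4 with 1 TSC or PC library left out. Without both shallow libraries 1 CTC library is left, so calls are not counted there. The members' median was then −0.24 in CTC against PC and 0.42 in TSC against CTC, beside −0.08 and 0.09 over all genes. For TSC against PC, 0 members were called under each alternative run. The median of the members in TSC against PC ran from −0.012 (without TSC replicate 1) to 0.28 with 1 library left out and was 0.01 without both shallow libraries. With the correction for GC content and length the median was −0.11 in CTC against PC and 0.32 in TSC against CTC. The other medians moved by less than the spread between replicates (0.16). Over all genes, calls in CTC against PC were 200 higher and 359 lower, against 543 and 291 with that correction and 381 and 1154 with no filter. By DESeq2 they were 429 and 703, by limma-voom 711 and 949, and with the 2 groups alone 525 and 884. Without mitochondrial and small noncoding genes they were 240 and 422. With 1 TSC or PC library left out they ran from 72 to 497 higher and from 82 to 1078 lower. In TSC against PC they were 32 and 40, against 108 and 87 with that correction and 114 and 241 with no filter. In TSC against CTC they were 53 and 75, against 47 and 100, and 514 and 214. By DESeq2 that comparison had 203 and 182, by limma-voom 230 and 210, and with the 2 groups alone 10 and 72. With 1 TSC or PC library left out it ran from 3 to 497 higher and from 33 to 199 lower. The cause of these changes was not tested.

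Whether equal replicate numbers mark paired samples is not given by the labels. Same-numbered libraries of TSC and PC had correlations of deviations of 0.03, −0.13 and 0.09. Those with different numbers ran from −0.17 to 0.17, the highest for TSC replicate 1 and PC replicate 2. Deviations from a group mean of so few libraries depend on each other, so these values cannot decide on pairing. With the replicate block 1 member (FASN) was called in CTC against PC and 0 in TSC against CTC. Over all genes that fit called 84 higher and 177 lower, and 18 and 43. The depth of CTC replicate 1 limits the members with low counts, such as ACACA with 1 read. With all libraries thinned to its total, 2 members were called in CTC against PC, where 89 of 9841 tested genes were called higher and 183 lower.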
